A study of Homo sapiens with 8 samples.

Results

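The miR-34 family in the human genome comprises miR-34a, miR-34b and miR-34c, and all 6 of its mature arms, the 5p and the 3p arm of each hairpin, were among the 594 miRNAs measured. The arms were taken by name and none was left out, since each passed the filter on low values (at least 5 RPM in at least 2 libraries). Small RNAs had been sequenced in 8 libraries of the established pluripotent line H1, which are human embryonic stem cells, with 2 in each of 4 genotypes. The genotypes were Dicer-S1344L homozygous, Dicer-S1344L hemizygous (a single S1344L allele), Dicer-null and wild type. The study made the S1344L lines with CRISPR-Cas9 to ask what this Dicer hotspot substitution of cancers does to miRNAs. The labels call the RNA samples biologically independent and do not say how many clones stand behind a genotype. Errors and p-values therefore speak for these libraries only. The SE of a level was drawn from the library spread of all miRNAs together, not from that miRNA's own libraries.

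Dicer cuts a miRNA hairpin at both strands next to its loop, using a pair of RNase III domains. The RNase IIIa domain cuts the 3p strand, the RNase IIIb domain cuts the 5p strand, and S1344 lies in the IIIa domain beside the IIIb active site. After the cut, Argonaute keeps either strand as the guide, and the bases at positions 2 to 8, the seed, pair with target mRNAs. The tumour suppressor p53 switches on MIR34A and the shared MIR34B and MIR34C transcript, and the 5p arms are the usual guides; they repress regulators of the cell cycle and survival such as CDK6, MET, BCL2 and SIRT1. In mouse cells the miR-34 family restrains reprogramming to pluripotency.

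The mature sequences are shown because the arms of the family differ in which bases form their seeds, written here in capitals (RefSeq, GRCh38.p14, 5′ to 3′). Of the 6 arms, 5 matched an entry there by name. The 6th, miR-34c-5p, had no entry, so its seed was not compared with those of the others.
miR-34a-5p: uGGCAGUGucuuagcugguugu
miR-34b-5p: uAGGCAGUgucauuagcugauug
miR-34a-3p: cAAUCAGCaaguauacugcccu
miR-34b-3p: cAAUCACUaacuccacugccau
miR-34c-3p: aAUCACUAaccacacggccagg
No seed was shared between any of these 5 arms. The 7 bases that form the seed of miR-34a-5p stood at positions 3 to 9 of miR-34b-5p, which begins with an extra base, so the same letters are read in a frame shifted by 1. Likewise the seed of miR-34b-3p stood at positions 1 to 7 of miR-34c-3p. The other measured miRNAs held 0 with any of the 5 seeds, among the 533 of 594 whose sequence was matched. These 533 leave out miR-34c-5p, so whether it shares a seed with another arm of the family cannot be read from this. Both 5p arms begin with U, as did 41.9% of 203 5p arms with a sequence, whereas miR-34a-3p and miR-34b-3p begin with C and miR-34c-3p with A, as did 24.9% and 30.9% of 269 3p arms.

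The hairpins show where Dicer separates the arms, which are in capitals. MIR34A lies on the minus strand at chr1:9151668-9151777, inside the lincRNA gene MIR34AHG. MIR34B and MIR34C lie on the plus strand at chr11:111512938-111513021 and chr11:111513439-111513515, with 417 bases between them, and overlap no other gene of the GENCODE 29 annotation.
MIR34A: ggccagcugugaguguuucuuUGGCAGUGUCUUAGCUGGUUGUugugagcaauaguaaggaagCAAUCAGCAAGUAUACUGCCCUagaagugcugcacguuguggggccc
MIR34B: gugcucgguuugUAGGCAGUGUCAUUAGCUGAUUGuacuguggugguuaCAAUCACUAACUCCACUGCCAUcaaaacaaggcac
Between the arms lie 20 bases in MIR34A and 14 in MIR34B. The median over the 152 measured hairpins with an entry was 16 bases, with a range of 8 to 35.

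The libraries held 137655 to 2725756 miRNA reads, fewest in the null. Values are RPM, reads (plus 0.5) per 1000000 of a denominator the authors set for each library, so 1 read is worth 0.715 to 1.33 RPM and a count of 0 allows up to 3 reads (2.14 to 3.99 RPM). The miRNA reads came to between 0.729 and 2.43 times that denominator in the S1344L libraries, 0.118 and 0.183 times in the null and 2.09 and 2.33 times in wild type. Hemizygous replicate 1 stood apart at 0.729, and its replicate 2 lay above it by a median log2 difference of 1.98 over all miRNAs. Of 8 pluripotency miRNAs, all were measured in every library, with 48.7% to 51.6% of the reads in S1344L, 45.6% and 52.3% in null, and 38.0% and 39.7% in wild-type libraries. The 6 measured of 7 fibroblast-enriched miRNAs took 0.301% to 0.493% in S1344L, 0.996% and 1.08% in null (2 at 0 reads), and 1.03% and 1.28% in wild-type libraries, and 3 neural miRNAs 1.12% to 1.66%, 0.570% and 0.590%, and 0.733% and 0.927%. For all 3 lists the S1344L and wild-type libraries did not overlap, and the part of this in the results below was not tested. In bulk samples such as these, fewer cells with a miRNA and less of it per cell cannot be told apart.

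In the S1344L cells the family changed arms. Its reads came mostly from the 5p arms in null and wild-type cells and mostly from the 3p arms in both S1344L genotypes. The 6 arms together reached 2268 ± 820.5 RPM in homozygous, 1045 ± 929.7 in hemizygous, 142 ± 56.7 in null and 4328 ± 203 in wild-type cells (SD, n = 2 each). The 5p arms made up 17.4% ± 1.39 of that sum in homozygous, 30.8% ± 12.8 in hemizygous, 91.3% ± 0.761 in null and 94.0% ± 2.74 in wild-type cells. The most abundant arm was miR-34a-3p in all 4 S1344L libraries and miR-34a-5p in the 4 others. As a share of the family, miR-34a-5p was 4.28% in homozygous, 7.49% in hemizygous, 61.8% in null and 79.3% in wild-type cells.

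**Figure D1:**
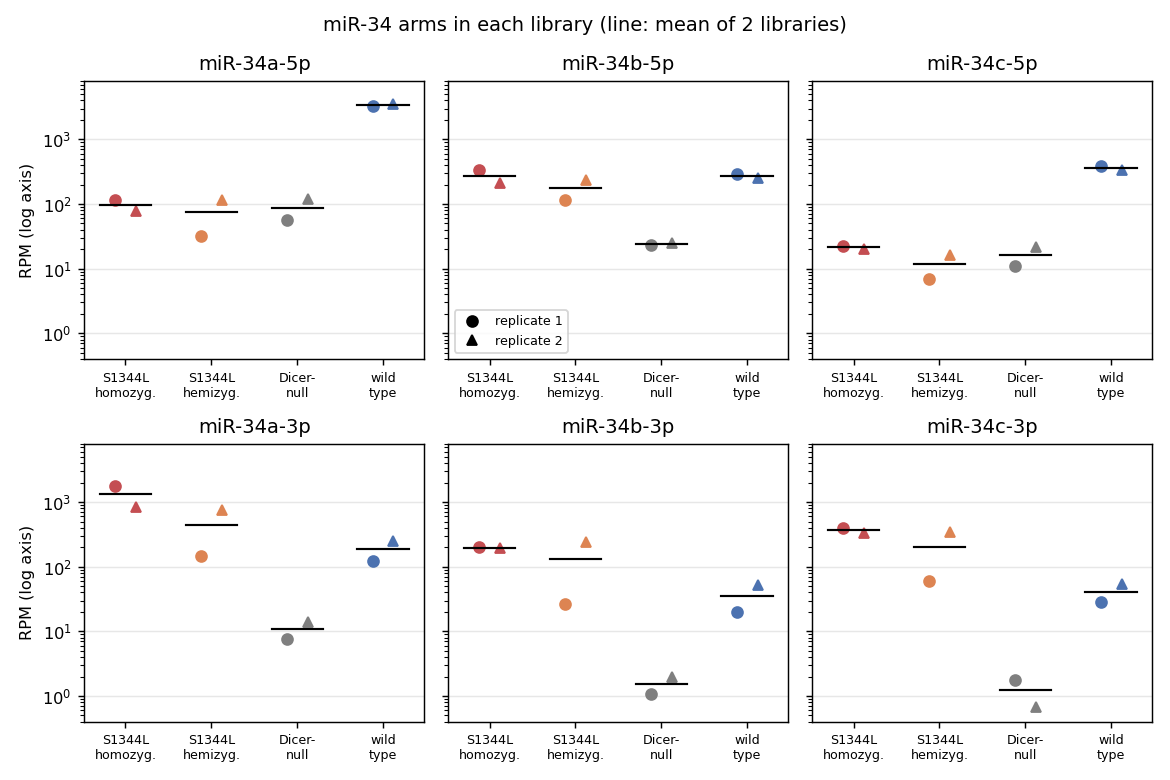
Level of each miR-34 arm in each library (points; RPM, log axis), with a bar at the mean of the 2 libraries of a genotype. miR-34a-5p and miR-34c-5p are low in all 6 mutant libraries, miR-34b-5p is low in the 2 null libraries, and the 3p arms have their highest means in homozygous cells.

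miR-34a-5p, the family's main guide, was the arm with the largest loss in the S1344L cells. It was at 114 and 77.5 RPM in homozygous, 31.7 and 117 in hemizygous, 57.5 and 119 in null, and 3329 and 3527 in wild-type libraries. The 6 mutant libraries overlapped each other and all lay far below the wild-type pair. Of all 227 5p arms, 77.1% lay wholly below wild type in homozygous, 75.8% in hemizygous and 91.2% in null cells. The log2 change against wild type was -5.17 ± 0.96 in homozygous cells (36.1-fold lower, adjusted p = 8.36e-06), from limma with Benjamini-Hochberg adjustment over 594 miRNAs, as for every adjusted p of a level here. It was -5.79 ± 0.96 in hemizygous (adjusted p = 1.84e-07) and -5.35 ± 0.96 in null cells (adjusted p = 1.00e-07).

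miR-34c-5p, the guide of the third hairpin, had the same pattern at a lower level. It was at 22.8 and 19.8 RPM in homozygous, 6.92 and 16.5 in hemizygous, 11.1 and 22.0 in null, and 389.7 and 338 in wild-type libraries. All mutant libraries again lay below wild type, and the lowest mutant value rested on 9 reads. The null pair overlapped each S1344L pair. The hemizygous pair lay below the homozygous pair, as did those of 10.6% of the 227 5p arms. The log2 change was -4.03 ± 1.00 in homozygous (16.3-fold lower, adjusted p = 0.000592), -4.95 ± 1.00 in hemizygous (adjusted p = 1.23e-05) and -4.45 ± 1.00 in null cells (adjusted p = 1.53e-05). Without homozygous replicate 2 the homozygous fall no longer passed (adjusted p = 0.0751).

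miR-34b-5p did not share that fall in the S1344L cells. It was at 333 and 215 RPM in homozygous, 116 and 239 in hemizygous, 23.2 and 24.6 in null, and 294 and 250.3 in wild-type libraries. The homozygous pair lay on both sides of the wild-type pair, the hemizygous pair lay below it, and the null pair lay below all others. The log2 change was -0.021 ± 0.98 in homozygous (adjusted p = 0.991) and -0.70 ± 0.98 in hemizygous cells (adjusted p = 0.660), which did not pass, and -3.45 ± 0.98 in null cells (adjusted p = 0.000642). Under the own-total, median-ratio, upper-quartile and quantile scalings the hemizygous value turned positive (0.028 to 1.11). With the SE near 1, these values leave room for sizeable changes of either sign in the S1344L cells.

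miR-34a-3p, normally the discarded strand, was at 1772 and 852 RPM in homozygous, 146 and 744 in hemizygous, 7.50 and 14.0 in null, and 123 and 250.3 in wild-type libraries. Both homozygous libraries lay above wild type, while the hemizygous pair overlapped it. Of all 300 3p arms, 61% lay wholly above wild type in homozygous cells and 17% in hemizygous cells. miR-34b-3p was at 204 and 193 RPM in homozygous, 26.6 and 237 in hemizygous, 1.07 and 2.00 in null (1 read each), and 19.9 and 51.8 in wild-type libraries, with the same pattern of overlap. miR-34c-3p was at 403 and 331 RPM in homozygous, 60.1 and 349.6 in hemizygous, 1.79 (2 reads) and 0.665 (0 reads) in null, and 28.4 and 54.3 in wild-type libraries, and here both hemizygous libraries exceeded wild type.

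Against wild type, 5 of the 6 arms changed in homozygous cells, where 32.2% of all miRNAs did. The 3 that rose were the 3p arms: miR-34a-3p by a log2 change of 2.80 ± 0.97 (6.95-fold, adjusted p = 0.0156), miR-34b-3p by 2.59 ± 1.00 (6.01-fold, adjusted p = 0.0318) and miR-34c-3p by 3.18 ± 1.00 (9.08-fold, adjusted p = 0.00729). Of all 300 3p arms, 18.7% rose, with a median log2 change of 0.68. Of all 227 5p arms, 48.9% fell, with a median of -2.25; miR-34a-5p had the 7th largest fall among them, miR-34c-5p the 37th, and miR-34b-5p only the 193rd. The rises are less secure than the fall of miR-34a-5p. None of the 3 passed without either homozygous or either wild-type library, while that fall did. Such fits leave 1 library in a genotype, and far fewer of all miRNAs passed in them too. Over omissions of each of the 8 libraries, miR-34a-3p ranged from 2.27 to 3.33, miR-34b-3p from 1.92 to 3.26 and miR-34c-3p from 2.73 to 3.64. The fall of miR-34a-5p ranged from -5.45 to -4.90.

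**Figure D2:**
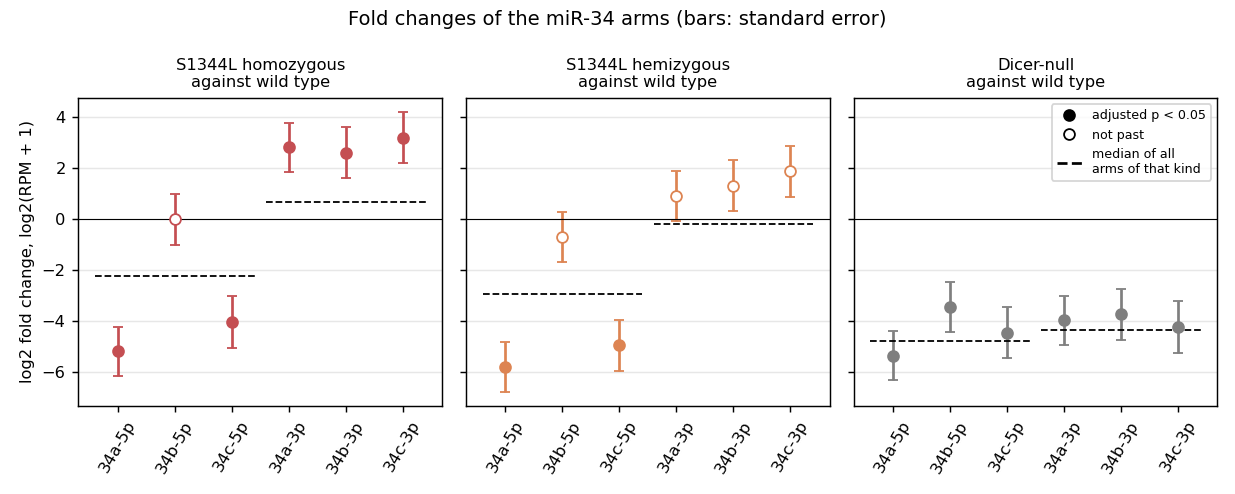
Change of each arm against wild type in the 3 mutant genotypes (points; log2 scale, bars are the SE of the limma fit; filled points passed the adjusted threshold; dashed lines are the medians of all 5p and of all 3p arms). In both S1344L genotypes miR-34a-5p and miR-34c-5p lie far below 0, miR-34b-5p near it and the 3p arms above it, while in null cells all 6 lie below 0 on the deposited scale.

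In hemizygous cells 2 of 6 arms changed, miR-34a-5p and miR-34c-5p, and both fell; 34.7% of all miRNAs changed and 60.8% of the 5p arms fell. The 3p arms had log2 values of 0.90 (miR-34a-3p, adjusted p = 0.538), 1.29 (miR-34b-3p, adjusted p = 0.356) and 1.86 (miR-34c-3p, adjusted p = 0.143). These values depended on replicate 1. Without it they were 2.07, 2.84 and 3.12, while the median over all miRNAs went from -0.89 to -0.00031. Scaling to the miRNA total of a library gave 5 called arms, where 108 of all 594 miRNAs were called higher and 204 lower. The fall of miR-34a-5p was the 8th largest of the 227 5p arms and that of miR-34c-5p the 26th.

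All 6 arms fell in null cells on the deposited scale, where 88.6% of all miRNAs changed and 87.2% fell. Their median log2 change was -4.10, beside -4.49 over all miRNAs, and the fall of miR-34a-5p was the 69th largest among the 5p arms. For the 2 arms with almost no reads in null cells, the ratio of summed reads, wild type over null, was 37.3 for miR-34b-3p (95% counting interval 10.0 to 313) and 43.4 for miR-34c-3p (11.7 to 363). The null libraries held miRNA reads of 0.118 and 0.183 times the denominator, against 2.09 and 2.33 times in wild type. Scaling libraries to a common miRNA level takes such a difference out, so scaled values are relative to other miRNAs. Which scale is closer to the amounts in the cells was not tested. Scaled to each library's own miRNA total, the median of all miRNAs was -0.84, with 79 of the 594 called higher and 265 lower. Of the 6 arms 1 was called, and miR-34b-5p turned to 0.40. Upper-quartile scaling also turned miR-34a-3p to 0.88, miR-34b-3p to 0.48 and miR-34c-5p to 0.45.

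Set against null cells, the S1344L genotypes divided the family. In homozygous cells 4 of 6 arms were called, all higher, where 76.3% of all miRNAs were higher and the median log2 difference was 3.92. Those 4 were miR-34b-5p (3.43 ± 0.98, adjusted p = 0.000828) and the 3p arms (miR-34a-3p 6.77, miR-34b-3p 6.32 and miR-34c-3p 7.41). By counts, homozygous exceeded null by 144-fold for miR-34a-3p (95% counting interval 93.1 to 236), by 213-fold for miR-34b-3p (58.6 to 1767) and by 397-fold for miR-34c-3p (109 to 3282), the last 2 against 2 null reads each. miR-34a-5p (0.18 ± 0.96, adjusted p = 0.872) and miR-34c-5p (0.42 ± 1.00, adjusted p = 0.708) did not differ detectably from their levels without Dicer on the deposited scale. Scaled to each library's own miRNA total, they came to -3.76 and -3.43, and miR-34b-5p to -0.48, relative to a median of 0.38 over all miRNAs. Under that scaling 5 of the 6 arms were called, and of all 594 miRNAs 217 were called higher and 182 lower.

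Hemizygous cells gave the same division. There too 4 of 6 arms were called, all higher than in null, where 63.8% of all miRNAs were. miR-34b-5p differed by 2.75 (adjusted p = 0.00949; 0.0634 without null replicate 1; -0.37 scaled to own totals) and the 3p arms by 4.87, 5.02 and 6.09 for miR-34a, miR-34b and miR-34c. miR-34a-5p was at -0.43 (adjusted p = 0.700) and miR-34c-5p at -0.50 (adjusted p = 0.665), neither past the threshold. Scaled to own totals both were called lower by limma, miR-34a-5p at -3.60 (adjusted p = 6.0e-05) and miR-34c-5p at -3.61 (adjusted p = 0.000193). Under that scaling 195 of all 594 miRNAs were called higher and 188 lower, with a median of 0.16. The other scalings gave -3.73 to -3.54 and -3.70 to -3.58. These scalings take out the low miRNA reads of the null libraries, so the values are relative to other miRNAs. Between hemizygous and homozygous cells 0 of 6 arms passed limma, as did 0% of all miRNAs, and 0 had an unadjusted p under 0.05. The values lay between -1.89 for miR-34a-3p (adjusted p = 0.661) and -0.61, beside a median of -0.85 over all miRNAs. Without hemizygous replicate 2 they lay between -3.06 for miR-34a-3p and -1.20 for miR-34b-5p, beside a median of -1.81 over all miRNAs.

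The division of each hairpin's product between its arms does not depend on the scale of a library. Of the miR-34a reads, the 5p arm held 6.01% (95% Wilson interval 5.00 to 7.22) and 8.29% (6.55 to 10.4) in homozygous, 17.7% (13.4 to 23.0) and 13.5% (11.1 to 16.4) in hemizygous, 88.9% (80.7 to 93.9) and 89.9% (82.4 to 94.4) in null, and 96.4% (95.8 to 96.9) and 93.4% (92.6 to 94.1) in wild-type libraries. Of the miR-34c reads, it held 5.24% (3.45 to 7.87) and 5.50% (3.41 to 8.74) in homozygous, 9.89% (5.29 to 17.7) and 4.35% (2.50 to 7.44) in hemizygous, 88.2% (65.7 to 96.7) and 100% (80.6 to 100) in null, and 93.3% (90.8 to 95.1) and 86.2% (82.8 to 89.1) in wild-type libraries. In both hairpins the S1344L libraries thus left the 5p arm a small minority, and the null libraries stayed near wild type.

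The 5p share of the miR-34b hairpin moved less, to near equal arms in the second library of each S1344L genotype. Its 5p share was 62.1% (57.8 to 66.2) and 52.7% (47.3 to 57.9) in homozygous, 81.5% (75.5 to 86.4) and 50.1% (45.0 to 55.3) in hemizygous, 97.0% (84.7 to 99.5) and 94.7% (75.4 to 99.1) in null, and 93.8% (91.0 to 95.8) and 83.0% (78.7 to 86.5) in wild-type libraries. Hemizygous replicate 1 lay just under the lower wild-type library, with overlapping intervals. Against wild type the mean share of miR-34a differed by -87.8 percentage points in homozygous and -79.3 in hemizygous cells, that of miR-34c by -84.4 and -82.6, and that of miR-34b by -31.0 and -22.5. An exact two-sided permutation test of 2 against 2 cannot go below p = 0.333, which each of these 6 differences gave.

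**Figure D3:**
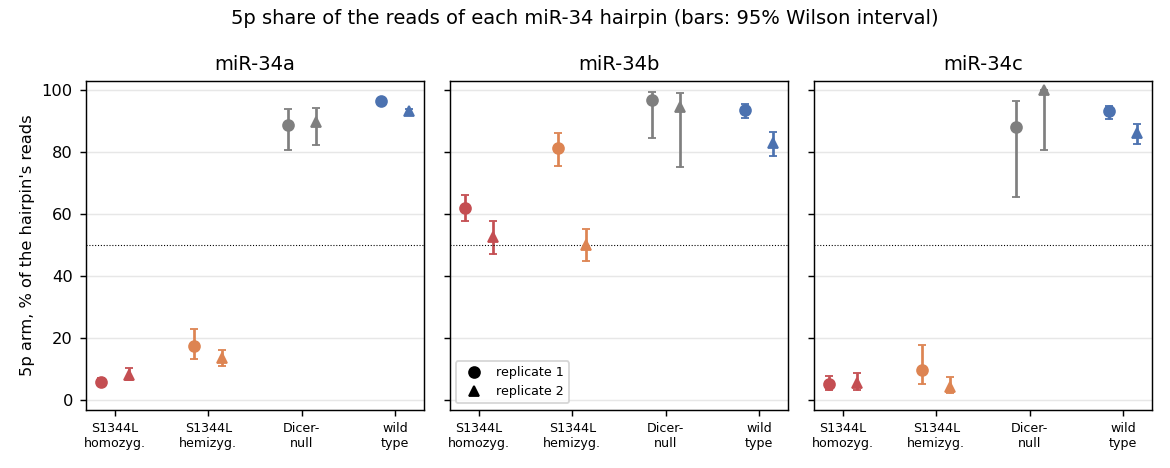
Share of a hairpin's reads that came from its 5p arm (percent) for miR-34a, miR-34b and miR-34c, 1 point per library with its 95% Wilson interval. The 4 S1344L libraries lie between 4.35% and 17.7% for miR-34a and miR-34c and between 50.1% and 81.5% for miR-34b, and the null and wild-type libraries lie at 83.0% or above.

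The same change was tested as the log2 of 3p over 5p across the 186 hairpins with both arms measured. All 3 miR-34 hairpins moved toward 3p in homozygous cells against wild type, where 79.6% of hairpins did, by 7.97 ± 0.49 for miR-34a (limma adjusted p = 1.13e-07), 7.21 ± 0.69 for miR-34c (adjusted p = 1.57e-06) and 2.61 ± 0.73 for miR-34b (adjusted p = 0.00521). The median over all hairpins was 3.29, and the changes ranked 2nd, 8th and 114th of 186 toward 3p. All 3 also moved in hemizygous cells, where 78% of hairpins did, by 6.69 for miR-34a (10th; adjusted p = 1.86e-07), 6.81 for miR-34c (7th; adjusted p = 2.52e-06) and 1.99 ± 0.73 for miR-34b (128th; adjusted p = 0.0240). The shifts of miR-34a and miR-34c passed under every alternative tried. That of miR-34b failed without wild-type replicate 1 in homozygous (adjusted p = 0.0599) and hemizygous cells (adjusted p = 0.197), and also without hemizygous replicate 2 in hemizygous cells (adjusted p = 0.269), where it also missed the stricter threshold of 0.01.

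**Figure D4:**
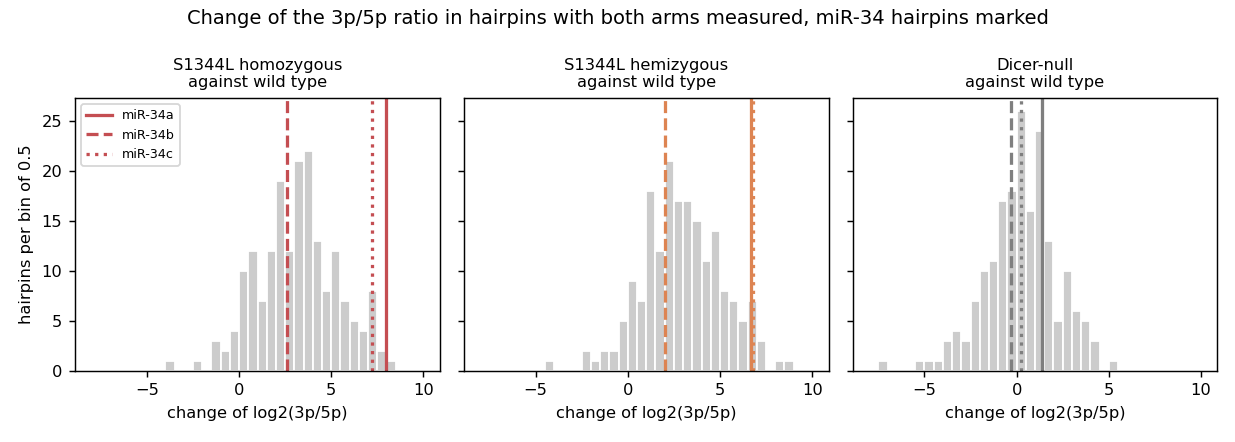
Histogram of the change in log2 3p/5p against wild type over 186 hairpins, for homozygous, hemizygous and null cells, with the miR-34 hairpins marked by lines. miR-34a and miR-34c lie in the right tail in both S1344L genotypes, miR-34b lies left of their medians of 3.29 and 2.87, and in null cells all 3 lie between -0.28 and 1.38.

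The null cells lay closer to wild type. There miR-34a moved toward 3p by 1.38 ± 0.49 (adjusted p = 0.0407), where 26.3% of hairpins did. This call was lost without any of 5 single libraries (both homozygous, both null and wild-type replicate 1; values of 0.92 to 1.85 over the 8 omissions, adjusted p up to 0.269), and under 4 other settings. miR-34b (-0.28, adjusted p = 0.768) and miR-34c (0.22, adjusted p = 0.806) did not pass, on very few 3p reads. Set directly against null, homozygous cells were shifted toward 3p by 6.59, 2.89 and 6.99 for miR-34a, miR-34b and miR-34c and hemizygous cells by 5.31, 2.27 and 6.59; all 3 passed in both, where 77.4% of hairpins did. For miR-34b in hemizygous cells that call was lost without hemizygous replicate 2 (1.24, adjusted p = 0.157), without null replicate 1 (2.05, adjusted p = 0.0688), with a pseudocount of 5 RPM (1.18, adjusted p = 0.110) and at an adjusted p under 0.01. Between hemizygous and homozygous cells 0 of 3 passed limma's adjusted threshold, as did 0% of hairpins, and 1, miR-34a at -1.28, had an unadjusted p under 0.05 (0.0232).

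The sum of both arms tells the hairpins apart as well. For miR-34c it was 388 ± 52.9 RPM in homozygous and 405 ± 18.6 in wild-type cells, and the libraries overlapped (exact permutation p = 1, n = 2 each). For miR-34b it was 472 ± 91.6 RPM in homozygous and 308 ± 8.34 in wild-type cells, 1.53 times as high with no overlap. For miR-34a it was 1407 ± 676 RPM in homozygous and 3615 ± 229.6 in wild-type cells, 0.389 times as high with no overlap (exact permutation p = 0.333 for both, the smallest possible). In hemizygous cells the sums were 519 ± 483 RPM for miR-34a, 309 ± 235 for miR-34b and 217 ± 211 for miR-34c, and in null cells 99.1 ± 48.1, 25.5 ± 1.64 and 17.7 ± 6.90 (SD, n = 2 each).

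Ratios between 5p arms within a library show how far miR-34b-5p parted from its relatives. The reads of miR-34b-5p over those of miR-34c-5p, encoded 417 bases apart, came to 14.6 and 10.8 in homozygous, 16.8 and 14.4 in hemizygous, 2.10 and 1.12 in null, and 0.754 and 0.741 in wild-type libraries. On the mean log scale that is 16.8-fold above wild type in homozygous, 20.8-fold in hemizygous and 2.05-fold in null cells, with no overlap in any (exact permutation p = 0.333 each). Over miR-34a-5p, the ratio was 2.93 and 2.77 in homozygous, 3.67 and 2.04 in hemizygous, 0.404 and 0.207 in null, and 0.0883 and 0.0710 in wild-type libraries. The ratio of miR-34a-5p over miR-34c-5p was 5.00 and 3.91 in homozygous, 4.58 and 7.08 in hemizygous, 5.19 and 5.42 in null, and 8.54 and 10.4 in wild-type libraries. Every mutant library lay below both wild-type ones, at 0.468 times wild type in homozygous, 0.603 in hemizygous and 0.562 in null cells (exact permutation p = 0.333 each).

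**Figure D5:**
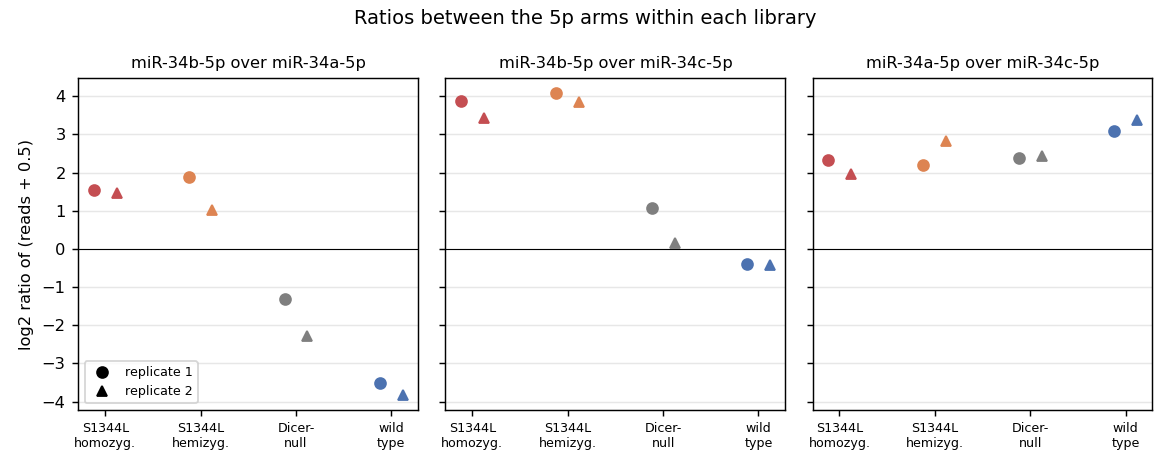
Ratios of reads between pairs of miR-34 5p arms in each library (points; log2 scale, 0.5 read added to each count). miR-34b-5p over miR-34c-5p and over miR-34a-5p is highest in the 4 S1344L libraries, while miR-34a-5p over miR-34c-5p, as a plain ratio, stays between 3.91 and 10.4 in all 8.

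The order of the arms within a genotype followed from these levels. In wild-type cells it ran miR-34a-5p, miR-34c-5p, miR-34b-5p, miR-34a-3p, miR-34c-3p and miR-34b-3p, where miR-34b-5p and miR-34a-3p overlapped, as did miR-34c-3p and miR-34b-3p. In homozygous cells it ran miR-34a-3p, miR-34c-3p, miR-34b-5p, miR-34b-3p, miR-34a-5p and miR-34c-5p, and only miR-34c-3p and miR-34b-5p overlapped as neighbours. In hemizygous cells each neighbour overlapped the next except miR-34a-5p and miR-34c-5p, the lowest. In null cells miR-34a-5p led, then miR-34b-5p, and miR-34c-5p overlapped miR-34a-3p, with the 2 other 3p arms at 0 to 2 reads.

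The miRNAs with the pattern most like that of miR-34a-5p across the 8 libraries were found by Pearson's r of log2 levels, as a description over points that share libraries and scaling. They were miR-518f-5p (0.996), miR-125b-5p (0.996), miR-744-5p (0.996), miR-34c-5p (0.995) and miR-205-5p (0.994), among 492 others with a mean of at least 50 RPM in a genotype. For miR-34c-5p they were miR-518f-5p (0.995), miR-34a-5p (0.995), miR-2110 (0.995), miR-525-5p (0.994) and miR-125b-5p (0.991). miR-34b-5p stood far down the order for miR-34a-5p, at 260 (r = 0.440). miR-34a-3p, from the same hairpin, had r = 0.0766 with miR-34a-5p, and -0.955 once each library's median was taken out.

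Other miRNAs linked to p53 were mostly below the call threshold in S1344L cells on the deposited scale, as were most of all miRNAs. The other scalings called more of both. Of a list of 17, 12 were measured and the others were not analysed here. In homozygous cells 2 of the 12 fell and 0 rose by limma, with 4 lower and 1 higher at an unadjusted p under 0.05; the median log2 change was -0.91, against -0.041 over all miRNAs, of which 22.2% fell. Its 6 5p arms had a median of -1.64 and its 5 3p arms 0.69, beside -2.25 and 0.68 over all arms of each kind. The 2 that fell were miR-15a-5p, a repressor of BCL2 and cyclins (-4.85, adjusted p = 1.40e-05), and miR-192-5p, induced by p53 (-3.51, adjusted p = 0.00301). Among those not called, miR-194-5p was at -1.41, miR-16-5p at -1.71 and miR-107 at -2.13 (adjusted p = 0.0847). Of the 3p arms on the list, miR-200c-3p and miR-141-3p, which repress ZEB factors, were at 0.74 and 0.23, miR-22-3p at 0.69 and miR-143-3p at -0.41. The highest value was that of miR-149-3p (2.15 ± 0.93, adjusted p = 0.0639), which passed under own-total scaling (2.05, adjusted p = 0.00320) and under the other scalings, and did not pass without any single homozygous or wild-type library.

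In hemizygous cells 4 of the 12 fell, miR-107 (-3.09), miR-15a-5p (-5.42), miR-16-5p (-2.43) and miR-192-5p (-4.01), and 0 rose; the median was -1.76, against -0.89 over all miRNAs, of which 30.6% fell. In null cells all 12 fell on the deposited scale, with log2 changes of -6.99 to -2.04. These counts moved with the fit, as did those of all 594 miRNAs. Scaled to each library's own total, 113 miRNAs rose and 200 fell in homozygous cells, and 108 and 204 in hemizygous cells. Of the list, 8 were then called in homozygous and 7 in hemizygous cells. Leaving out 1 library moved the list's count and the count over all miRNAs together. For the homozygous comparison both were smaller without any single homozygous or wild-type library, and larger without either hemizygous library. For the hemizygous comparison both were smaller without either wild-type library, and larger without hemizygous replicate 2. miR-143-3p, miR-145-5p and miR-22-3p of the list also stand among the fibroblast-enriched miRNAs.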

How the data were processed

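Trizol RNA with spike-ins was ligated at the 3′ and then the 5′ end, cut out of gels by size, amplified and read from 1 end, per the labels' protocols. Cutadapt, limma and hg38 are named, without versions, by the submitters' processing notes; how reads were aligned, counted and scaled is not given there. The deposited values are log2 of reads plus 0.5 per 1000000 of a denominator that differs from the library's miRNA total. They were turned back to RPM, and recovered reads lay within 7.31e-09 of whole numbers. The authors' scaling touches every level and no ratio within a library.

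Levels, as log2(RPM + 1), were tested with limma 3.58.1 (R 4.3.3) in a model of 4 group means over 8 libraries, with a variance trend and two-sided p-values; the threshold was 0.05 after Benjamini-Hochberg adjustment over 594 miRNAs. In this fit the SE of a miRNA came wholly from the variance trend over all miRNAs, not from its own libraries. The filter of 5 RPM in 2 libraries removed none. A fold change on that scale understates changes of low miRNAs. Hairpin 3p/5p ratios, paired by name, had their own fit of the same kind. Both fits were run on simulated data with independent noise and no library-wide shift. That run therefore does not cover shifts such as the one between the hemizygous replicates. Exact two-sided permutation tests served single ratios and shares. Wilson and counting intervals hold counting error alone, which the spread between replicates exceeded: chi-square per degree of freedom was 10.5 in the homozygous pair, 69.4 in the hemizygous, 23.4 in the null and 84.5 in the wild type. Named are all 6 arms, the measured members of the p53-linked list, and the 5 miRNAs most like miR-34a-5p and miR-34c-5p. The arms, lists and tests were chosen with earlier results of these data known. Alternatives were pseudocounts, filters, scalings, variance options, fits of fewer libraries, a stricter threshold, a replicate block and omission of single libraries.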

Additional observations from a re-analysis of the deposited data

How the results depend on the processing

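Precision is limited by 2 libraries per genotype, by hemizygous replicate 1, and by 0 to 2 reads of miR-34b-3p and miR-34c-3p in null cells; the cause of the changes below was not tested unless the setting itself shows it. Scaling sets the level of a whole library, and the median of all miRNAs against wild type went from -0.041 to -0.10, 0.14, 0.83 and 0.32 in homozygous cells, from -0.89 to -0.21, 0.15, 0.84 and 0.30 in hemizygous cells, and from -4.49 to -0.84, -0.32, 0.22 and -0.35 in null cells under own-total, median-ratio, upper-quartile and quantile scaling. In that order of settings, the miR-34 arms called came to 1, 1, 1 and 0 in place of 6 in null cells and 5, 5, 6 and 5 in place of 2 in hemizygous cells. The p53-linked miRNAs called came to 8, 8, 8 and 7 in place of 2 in homozygous cells, 7, 8, 8 and 7 in place of 4 in hemizygous cells, and, under the last 3, to 7, 7 and 7 in place of 12 in null cells. Of the 592 to 594 miRNAs tested, those called higher and lower moved as well. In homozygous cells they came to 113 and 200, 152 and 186, 254 and 150, and 189 and 165 in place of 59 and 132. In hemizygous cells they came to 108 and 204, 160 and 184, 255 and 153, and 179 and 167 in place of 24 and 182. In null cells they came to 79 and 265, 114 and 177, 166 and 97, and 100 and 168 in place of 8 and 518. With only the compared libraries fitted, the list gave 9 in homozygous and 2 in hemizygous cells, and with array weights 9 in homozygous cells. All miRNAs called higher and lower in these 3 cases were 157 and 215, 1 and 108, and 164 and 220. At an adjusted p under 0.01, 3 arms were called in homozygous cells in place of 5. Of all 594 miRNAs, 36 were then called higher and 102 lower. The single hairpin called in null cells was lost (0) with a pseudocount of 0.5, with only the compared libraries, with array weights and at an adjusted p under 0.01.

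Leaving out 1 library at a time left 1 genotype with a single library, so counts from these fits are not given. The arms, hairpins and p53-linked miRNAs called changed in most comparisons, and the values of all miRNAs moved as well. Against wild type, the median over all miRNAs ranged from -0.14 to -0.026 in homozygous, -1.91 to -0.00031 in hemizygous and -4.81 to -4.03 in null cells. Between hemizygous and homozygous cells it ranged from -1.81 to 0.13. The labels do not say whether equal replicate numbers pair the samples. Replicate differences correlated by -0.074 to 0.597 over 6 pairs of genotypes. Only 1 exceeded 0.1, that of hemizygous and wild-type cells at 0.597, and its source was not tested. With replicate number as a block, 5, 2 and 6 arms, 3, 3 and 1 hairpins and 3, 6 and 12 p53-linked miRNAs were called in homozygous, hemizygous and null cells against wild type. Of all 594 miRNAs, those called higher and lower were then 69 and 137, 32 and 198, and 10 and 519.

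Signs turned as follows under own-total, median-ratio, upper-quartile and quantile scaling, in that order. Each brings the libraries to a common miRNA level, so these values are relative to other miRNAs. Homozygous against null gave -3.76, -4.02, -3.88 and -3.72 for miR-34a-5p, -3.43, -3.65, -3.52 and -3.36 for miR-34c-5p, and -0.48, -0.75, -0.60 and -0.36 for miR-34b-5p; hemizygous against null gave -0.37, -0.51, -0.36 and -0.16 for miR-34b-5p. Hemizygous against homozygous gave 0.16, 0.30, 0.29 and 0.18 for miR-34a-5p and 0.11, 0.24, 0.24 and 0.20 for miR-34b-5p. miR-34b-5p against wild type gave 0.40, 0.92, 1.48 and 1.06 in null, 0.028, 0.41, 1.11 and 0.90 in hemizygous and, under the last 3, 0.17, 0.87 and 0.69 in homozygous cells. In null cells miR-34a-3p came to 0.32, 0.88 and 0.31 under the last 3, and miR-34b-3p to 0.48 and miR-34c-5p to 0.45 under upper-quartile scaling. In null cells the listed miR-149-3p came to 1.13, 1.51, 1.95 and 0.93, miR-605-5p to 0.50, 0.96, 1.42 and 0.56, miR-22-3p under the last 3 to 0.29, 0.85 and 0.92, and miR-16-5p under upper-quartile scaling to 0.53. In hemizygous cells miR-200c-3p came to 0.25, 0.63, 1.34 and 0.67, miR-22-3p to 0.66, 1.05, 1.76 and 1.59, miR-605-5p to 0.64, 0.95, 1.55 and 0.74, and miR-141-3p under the last 3 to 0.13, 0.84 and 0.091. miR-143-3p came to 0.42 in hemizygous and 0.44 in homozygous cells under upper-quartile scaling. The null 3p/5p change was 0.73 for miR-34b with a pseudocount of 5 and -0.12 for miR-34c with 0.5.

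Signs also turned with a library left out. Against null, homozygous cells ranged from -0.34 to 0.70 for miR-34a-5p and -0.045 to 0.88 for miR-34c-5p, and hemizygous cells from -1.36 to 0.49 and -1.07 to 0.074. Against wild type, hemizygous cells ranged from -0.27 to 2.07 for miR-34a-3p, -0.27 to 2.84 for miR-34b-3p, -2.08 to 0.11 for miR-141-3p, -1.57 to 0.60 for miR-200c-3p, -1.01 to 0.87 for miR-22-3p and -0.53 to 0.47 for miR-605-5p. Homozygous cells ranged from -0.34 to 0.30 for miR-34b-5p and -0.094 to 0.59 for miR-605-5p, and the null 3p/5p change from -1.07 to 0.50 for miR-34b and -0.61 to 1.06 for miR-34c. Hemizygous against homozygous ranged from -1.54 to 0.31 for miR-34a-5p, -2.85 to 0.26 for miR-34b-3p, -1.66 to 0.42 for the miR-34b ratio and -1.09 to 0.28 for the miR-34c ratio.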
